A study of Mus musculus with 4 samples.

Results

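Interferon-stimulated genes are switched on when a cell senses viral nucleic acid or receives interferon. A set of 45 of them was chosen by gene symbol, and all 45 had a row in the deposited expression table of 55536 rows. The table covers 4 mouse RNA sequencing libraries from inguinal white adipose tissue, made from its stromal vascular fraction (the cells of fat other than adipocytes). Per the series' text, the study asked how parental obesity bears on adipose progenitors. All mice were wild-type males at postnatal day 21, and the strain is not given in the sources used here. The groups were LnF1 offspring on water, LnF1 offspring on 1,3BD, ObF1 offspring on water and ObF1 offspring on 1,3BD, named as the labels name them. Each group was 1 library made from a pool of 3 mice, so no group has a replicate of its own.

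Type I interferons bind the receptor pair Ifnar1 and Ifnar2 and act through Janus kinases on a complex of STAT proteins and Irf9, which binds a promoter element called ISRE. Interferon gamma uses its own receptor pair and an element called GAS. The genes switched on in this way code for sensors of viral RNA and DNA, for enzymes and GTPases that block viral growth, and for transcription factors that extend the response. Fibroblast-like cells, which make up much of the adipose stroma, can mount this response as well as immune cells can.

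Values are read counts per 1000000 reads after the submitters' scaling (CPM), and 4 values in a row are always given in the order LnF1 water, LnF1 1,3BD, ObF1 water, ObF1 1,3BD. The libraries held 24586827 to 26000090 reads, and 1 read was worth 0.0359 to 0.0434 CPM. A log2 difference is 1,3BD minus water unless ObF1 minus LnF1 is named, on the scale log2(CPM + 0.0796). It was tested with limma over 12838 genes of at least 1 CPM in 2 libraries, with both factors in 1 model, and called at an adjusted p under 0.05. The residual spread rests on 1 degree of freedom per gene shared across genes. With 1 library per combination, that residual is the gap between the treatment differences of the 2 parental groups. The p-values are set against this gap in these pools, and spread between replicate pools was not measured. Leaving out the scaling factors shifted the median over all genes by 0.25 (log2) and the calls over all genes from 3189 lower and 2466 higher to 2283 lower and 3663 higher. Mitochondrial transcripts took 1.13%, 2.78%, 1.30% and 5.80% of the values, highest in the ObF1 1,3BD library, and the part of this in the results was not tested.

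Most of the 45 genes were lower in the 1,3BD libraries. Of the 43 that passed the filter on low values, 39 fell, 2 rose (the receptor genes Ifnar1 and Ifnar2), and 2 did not pass the test (Trim25 and Eif2ak2). Over all genes tested, 24.8% fell and 19.2% rose. Of the 43, 8 were under 1 CPM in both 1,3BD libraries and entered the test through their water libraries alone (Ifit3b, Oas1a, Oas2, Oasl1, Mx2, Rsad2, Cmpk2 and Cxcl10). Of the 34 genes with a mean of at least 5 CPM over all 4 libraries, 30 fell and 2 rose. The median log2 difference of the tested members was -2.14, against -0.06 for all genes tested. For the 34 members with a mean of at least 5 CPM it was -1.72. Of the 39 that fell, 37 did so by at least 2-fold in the fit, 23 by at least 4-fold and 14 by at least 8-fold. These counts and the median of -2.14 include the 8 genes that entered through water alone, for which a lower 1,3BD value followed from the filter. Taking single pairs of libraries, 42 of the 45 were lower in LnF1 and 41 in ObF1, against 52.7% and 52.2% of all genes tested. In 41 of the 45, both 1,3BD libraries were below both water libraries, a pattern found in 38.2% of all genes tested. A lower value in a bulk library of the stromal vascular fraction can come from fewer cells of a type or from less RNA per cell. These cannot be told apart here.

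**Figure D1:**
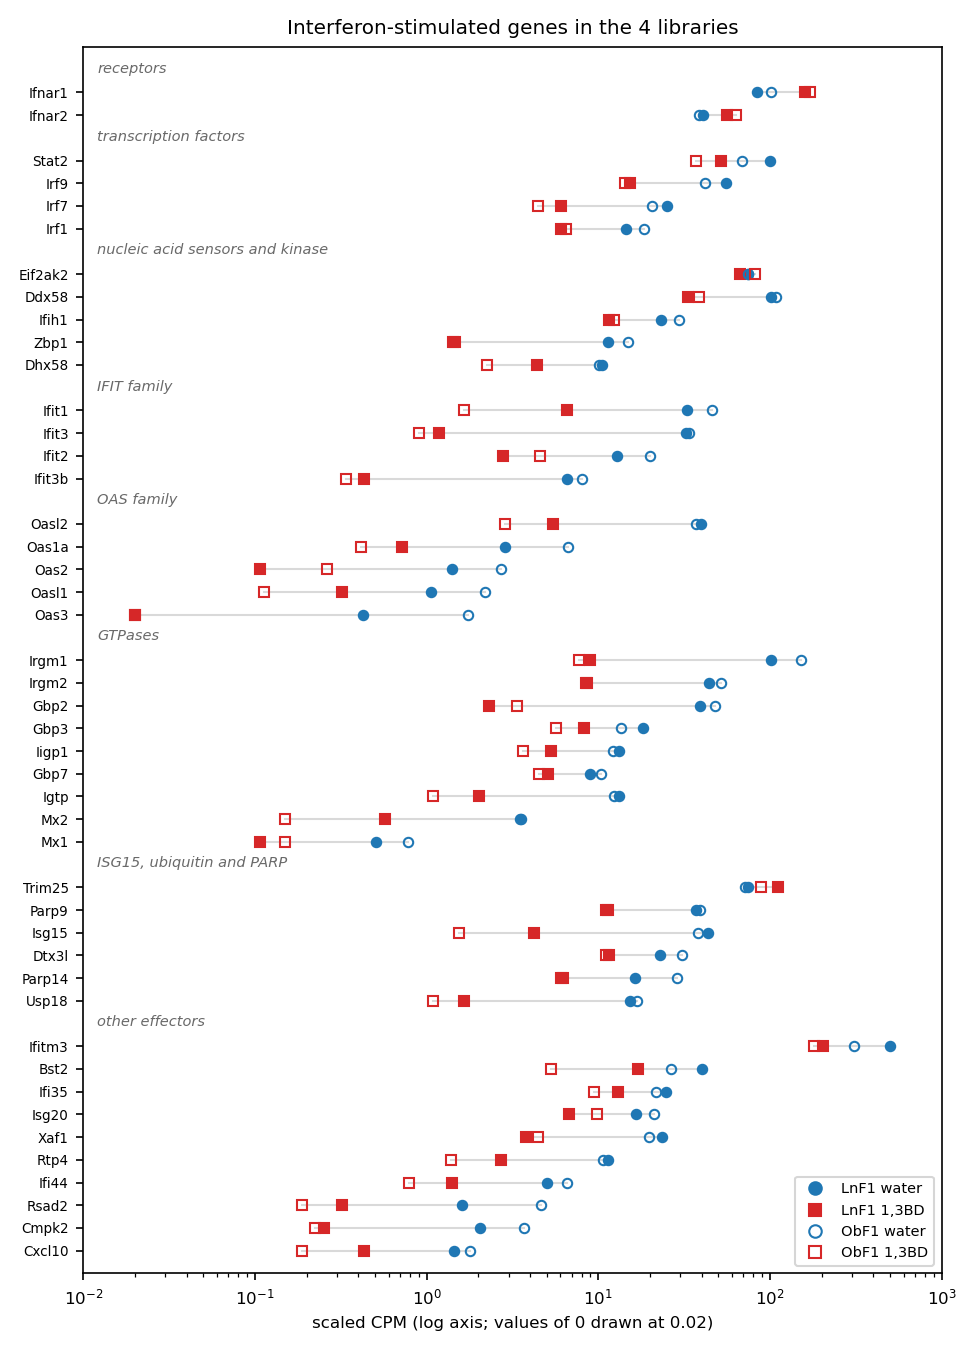
Levels of the 45 genes in the 4 libraries, in CPM on a log axis, grouped by role, with 1 point per library (circles for water, squares for 1,3BD, filled for LnF1, open for ObF1) and values of 0 drawn at 0.02 CPM. In 41 genes both 1,3BD points lie to the left of both water points, while Ifnar1, Ifnar2 and Trim25 show the opposite order.

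Compared per kilobase of merged exons, the members spanned several orders of magnitude in the LnF1 water library. Ifitm3, a membrane protein that blocks viral entry, stood highest at 741 CPM per kb, followed by Isg15 at 57.4 and Bst2 at 44.6 CPM per kb. The lowest were Mx1 at 0.135 and Oas3 at 0.0600 CPM per kb. The order differed in the 1,3BD libraries. In the LnF1 1,3BD library Ifnar1 stood at 26.98 CPM per kb, above Isg15 at 5.55 and Ifit3 at 0.678 CPM per kb. With 1 library per group, neighbours in these orders have no spread of their own to be told apart by.

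The 2 subunits of the type I interferon receptor were higher in both 1,3BD libraries. Ifnar1 (chr16:91485238-91507441 in mm10) stood at 84.4, 160.3, 101 and 171 CPM (log2 difference 0.84, SE 0.19, limma adjusted p = 0.00484). Ifnar2, on the same chromosome with Il10rb between them, stood at 40.5, 55.9, 38.7 and 63.7 CPM (log2 difference 0.59, SE 0.21, limma adjusted p = 0.0390). Neither pair of groups overlapped. Ifnar1 lost its call when the LnF1 water, the ObF1 water or the ObF1 1,3BD library was left out (limma adjusted p 0.0506 to 0.140). Ifnar2 lost its call without each of the same 3 libraries, without a filter on low values and without the parental term (limma adjusted p 0.0559 to 0.227).

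The ligands of this receptor were near or at 0. None of 21 interferon genes reached the filter, 19 had no read in any library, and the other 2 were seen in at most 2 reads of a library. Ifna13 was listed at 0, 0.0717, 0 and 0 CPM, and Ifnab at 0.0424, 0, 0 and 0.0750 CPM. At these depths a gene with no read may still reach 0.108 to 0.130 CPM (3 reads, counting error only).

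Beyond Ifnar1 and Ifnar2, 12 of 14 other receptor and JAK-STAT genes were tested, of which 4 fell, 3 rose and 5 did not pass, where 24.8% and 19.2% of all genes fell and rose. Their median log2 difference was 0.01. Jak1, a kinase bound to Ifnar1's partner chain, stood at 651, 939, 554 and 1287 CPM and rose (log2 difference 0.87, SE 0.24, limma adjusted p = 0.0120). Jak2, the kinase of the interferon gamma receptor, stood at 62.6, 199, 82.2 and 267 CPM and rose (log2 difference 1.68, SE 0.19, limma adjusted p = 5.93e-05). Jak1 lost its call without the LnF1 water, ObF1 water or ObF1 1,3BD library and without a filter (limma adjusted p 0.0755 to 0.180). Stat3, which serves many cytokines, stood at 453, 435, 383 and 383 CPM and did not pass (log2 difference -0.03, SE 0.20, limma adjusted p = 0.915).

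The interferon gamma receptor chains were read in all 4 libraries. Ifngr2 stood at 99.9, 53.2, 110.4 and 56.2 CPM and fell (log2 difference -0.94, SE 0.20, limma adjusted p = 0.00294). Ifngr1 stood at 32.8, 58.2, 51.6 and 59.7 CPM and did not pass (log2 difference 0.52, SE 0.22, limma adjusted p = 0.0818), except with library totals. Ifngr2 lost its call without either water library (limma adjusted p 0.0550 to 0.0788). Of the interferon lambda receptor chains, Il10rb stood at 17.7, 17.1, 20.6 and 22.8 CPM (log2 difference 0.05, SE 0.23, limma adjusted p = 0.865), and Ifnlr1 was at most 0.300 CPM and was not tested.

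All 4 transcription factors of the set fell, against 24.8% of all genes tested, with a median log2 difference of -1.53. Irf9, the DNA-binding part of the complex below the type I receptor, stood at 55.3, 15.3, 41.7 and 14.3 CPM (log2 difference -1.69, SE 0.23, limma adjusted p = 1.85e-04). Stat2, its partner, stood at 100.3, 52.1, 68.9 and 37.2 CPM (log2 difference -0.92, SE 0.20, limma adjusted p = 0.00390). Irf7, which drives interferon genes themselves, stood at 25.1, 6.10, 20.4 and 4.42 CPM (log2 difference -2.11, SE 0.26, limma adjusted p = 1.00e-04). Both 1,3BD values were below both water values in each of these 3 genes, a pattern found in 38.2% of all genes tested. Irf1, an early factor downstream of interferon gamma, stood at 14.6, 6.10, 18.4 and 6.45 CPM, again without overlap (log2 difference -1.37, SE 0.26, limma adjusted p = 0.00178). Stat2 lost its call without the LnF1 water or the ObF1 1,3BD library (limma adjusted p 0.122 to 0.226), and Irf1 without the ObF1 water library (limma adjusted p = 0.0762).

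Of the 5 nucleic acid sensors and kinases, 4 fell, where 24.8% of all genes tested fell. Ddx58, which codes for the RNA sensor RIG-I, stood at 101, 33.5, 109 and 38.4 CPM (log2 difference -1.55, SE 0.20, limma adjusted p = 1.53e-04). Ifih1, a sensor of long double-stranded RNA, stood at 23.2, 11.5, 29.6 and 12.3 CPM (log2 difference -1.13, SE 0.24, limma adjusted p = 0.00301), and its call was lost without the ObF1 water library (limma adjusted p = 0.103). Dhx58, a regulator of both sensors, stood at 10.5, 4.41, 10.04 and 2.25 CPM (log2 difference -1.68, SE 0.33, limma adjusted p = 0.00215). Both 1,3BD libraries were below both water libraries in each of the 3 genes, a pattern found in 38.2% of all genes tested. Zbp1, a sensor of Z-form nucleic acid that can start cell death, showed a wider gap, at 11.4, 1.47, 14.9 and 1.42 CPM (log2 difference -3.10, SE 0.33, limma adjusted p = 4.02e-05). Eif2ak2, the kinase PKR that halts translation on double-stranded RNA, did not pass the test. It stood at 74.03, 67.1, 74.5 and 81.3 CPM, with the water and 1,3BD values overlapping and log2 differences of -0.14 in LnF1 and 0.13 in ObF1 (log2 difference -0.0076, SE 0.20, limma adjusted p = 0.977). Opposite differences beyond counting error were found in 6.49% of all genes tested. Dhx58 lost its call without either water library (limma adjusted p 0.0612 to 0.0772).

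Of 22 sensors and adaptors outside the set 18 were tested, of which 5 fell, 3 rose and 10 did not pass, shares near those over all genes tested (24.8% and 19.2%). Their median log2 difference was -0.16. Adar, which edits double-stranded RNA, stood at 64.2, 47.9, 57.6 and 29.5 CPM and fell (log2 difference -0.69, SE 0.22, limma adjusted p = 0.0256). Traf6, a signalling adaptor, stood at 23.4, 44.6, 29.3 and 50.1 CPM and rose (log2 difference 0.85, SE 0.22, limma adjusted p = 0.00850). Mavs, the mitochondrial adaptor of the RNA sensors, stood at 37.2, 48.8, 37.6 and 43.8 CPM (log2 difference 0.31, SE 0.21, limma adjusted p = 0.260), and Samhd1, which lowers nucleotide pools, stood at 114, 148, 118 and 165 CPM (log2 difference 0.43, SE 0.19, limma adjusted p = 0.0883). Neither passed, but Samhd1 did with library totals (log2 difference 0.68, limma adjusted p = 0.0142). Tmem173, which codes for STING, the adaptor of cytosolic DNA sensing, stood at 42.9, 10.8, 65.1 and 16.1 CPM and fell (log2 difference -1.99, SE 0.22, limma adjusted p = 5.21e-05). It was chosen after its values were seen. Adar and Traf6 each lost their call without LnF1 water, ObF1 water or ObF1 1,3BD and without a filter, and Adar also with library totals, in DESeq2 and without the parental term (adjusted p 0.0553 to 0.310 for Adar by limma and DESeq2, limma adjusted p 0.0522 to 0.174 for Traf6).

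The IFIT family, whose proteins bind viral RNA and block its translation, lies in a cluster on chromosome 19, in the order Ifit2, Ifit3, Ifit3b, Ifit1. Ifit3 showed the largest fall among the members tested, at 32.4, 1.18, 33.9 and 0.900 CPM (log2 difference -4.90, SE 0.31, limma adjusted p = 1.14e-06). Ifit3b stood at 6.58, 0.430, 7.99 and 0.337 CPM (log2 difference -3.99, SE 0.42, limma adjusted p = 3.42e-05). In both genes the 1,3BD values lay more than 10-fold below the water values of the same parental group. Of all stretches of 50 bases in the Ifit3 transcripts, 51.2% also occur in another gene, chiefly Ifit3b, so the reads of this pair may have been divided between them by the submitters' counting.

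Promoter sequences are shown here for this pair because both hold the same ISRE spelling and both genes fell. Each is the RefSeq promoter entry (GRCm38.p6) read 5′ to 3′ on the gene's strand and ending just before the start, with ISRE matches (GAAA, any 2 bases, GAAA, or its reverse complement TTTC, any 2 bases, TTTC) in capitals. The Ifit3 stretch lies at chr19:34583369-34583528, plus strand, and the Ifit3b stretch at chr19:34607757-34607956, plus strand. The longest identical run in the promoter entries of the pair is 169 bases.
Ifit3: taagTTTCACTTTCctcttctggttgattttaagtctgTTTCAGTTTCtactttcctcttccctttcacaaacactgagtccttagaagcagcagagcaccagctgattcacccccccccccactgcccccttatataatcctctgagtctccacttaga
Ifit3b: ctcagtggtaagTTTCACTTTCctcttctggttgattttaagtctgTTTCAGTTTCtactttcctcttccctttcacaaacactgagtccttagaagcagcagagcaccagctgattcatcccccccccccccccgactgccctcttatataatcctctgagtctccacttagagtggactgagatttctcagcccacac

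Ifit1 and Ifit2 also fell. Ifit2 stood at 12.9, 2.80, 19.9 and 4.57 CPM (log2 difference -2.14, SE 0.28, limma adjusted p = 1.63e-04). Ifit1 stood at 32.9, 6.56, 46.01 and 1.65 CPM (log2 difference -3.52, SE 0.62, limma adjusted p = 0.0127), with its highest value in ObF1 water and its lowest in ObF1 1,3BD. The log2 difference of Ifit1 was -2.31 in the LnF1 pair and -4.74 in the ObF1 pair. All 4 members of the family had both 1,3BD libraries below both water libraries, a pattern found in 38.2% of all genes tested. Among them, Ifit3b entered the test through its water libraries alone, so its lower 1,3BD values followed from the filter. The median log2 difference of the family was -3.76.

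**Figure D2:**
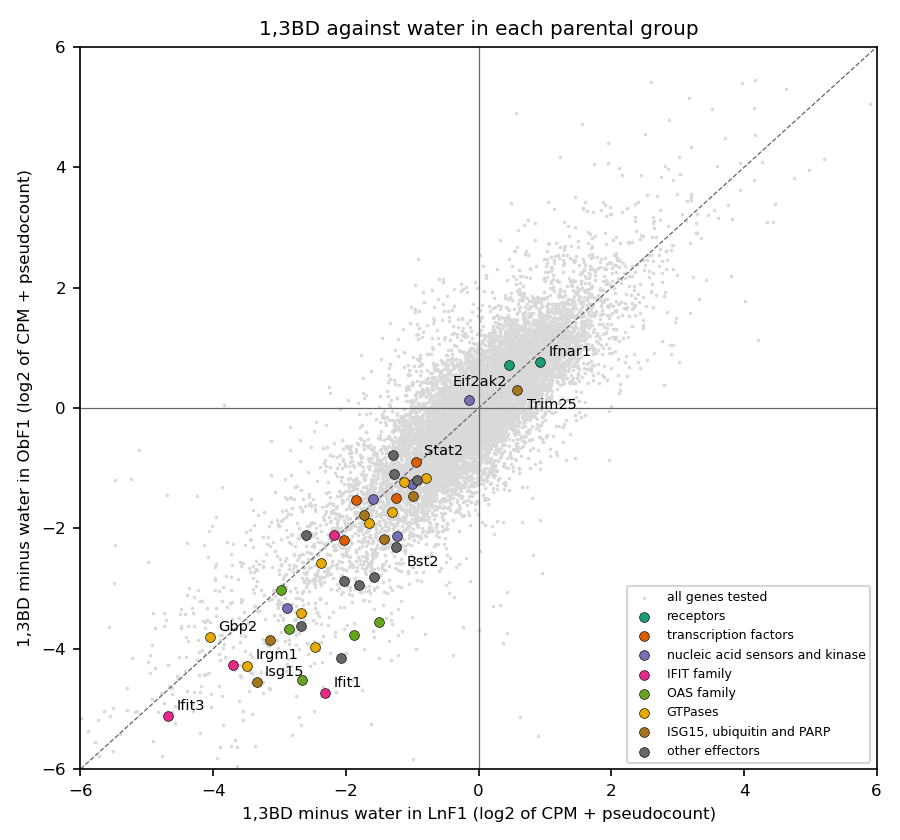
Log2 difference between 1,3BD and water for each gene in the LnF1 pair (horizontal axis) and in the ObF1 pair (vertical axis), 1 point per member over a grey background of all genes tested. Most members lie in the lower left, Ifit3 lowest at -4.68 and -5.12, and Ifnar1, Ifnar2 and Trim25 lie in the upper right.

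The oligoadenylate synthetases, which sense double-stranded RNA and activate RNase L, of the set were at most 6.65 CPM in any library, apart from Oasl2. Oasl2, a related protein, stood at 39.6, 5.41, 37.1 and 2.85 CPM (log2 difference -3.26, SE 0.28, limma adjusted p = 8.87e-06). Oas1a stood at 2.84, 0.717, 6.65 and 0.412 CPM (log2 difference -2.82, SE 0.51, limma adjusted p = 0.00139), and 57.6% of its 50-base stretches also occur in another gene, chiefly Oas1g. Oas2 stood at 1.40, 0.108, 2.69 and 0.262 CPM (log2 difference -3.001, SE 0.52, limma adjusted p = 9.42e-04). Every one of these genes was lower in both 1,3BD libraries, where 43.5% of all genes tested were lower in both parental groups. Oas1a, Oas2 and Oasl1 (below) entered the test through their water libraries alone, so lower 1,3BD values followed from the filter. Oasl1, which binds Irf7 messenger RNA, stood at 1.06, 0.323, 2.17 and 0.112 CPM (log2 difference -2.53, SE 0.61, limma adjusted p = 0.00675). Oas3 did not pass the filter, with 10 and 40 reads in LnF1 and ObF1 water and none in either 1,3BD library. With each 1,3BD library set at a floor of 3 reads, Oas3 was 3.95-fold lower in LnF1 and 15.4-fold lower in ObF1. These values take the water reads as free of counting error. The exact counting intervals reach down to 2.65-fold lower in LnF1 and 11.99-fold lower in ObF1. Without the ObF1 water library the call of Oas2 was lost (limma adjusted p = 0.0541). That of Oasl1 was lost without the same library, without ObF1 1,3BD and without a filter on low values (limma adjusted p 0.0730 to 0.107).

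The GTPases of the set act on membranes of viruses and intracellular microbes. All 8 tested members fell, against 24.8% of all genes tested, with a median log2 difference of -2.76. Among them, Mx2 entered the test through its water libraries alone, so a lower 1,3BD value followed from the filter. Irgm1, a regulator of the immunity-related GTPases and of autophagy, stood at 102, 8.96, 151 and 7.69 CPM (log2 difference -3.89, SE 0.25, limma adjusted p = 1.25e-06). Gbp2, a guanylate-binding protein that coats microbial vacuoles, stood at 39.3, 2.30, 48.1 and 3.37 CPM (log2 difference -3.93, SE 0.26, limma adjusted p = 1.41e-06). Both genes were lower in each 1,3BD library by more than 10-fold. Irgm2 stood at 44.2, 8.43, 51.7 and 8.62 CPM (log2 difference -2.48, SE 0.23, limma adjusted p = 1.62e-05), and Igtp, its overlapping neighbour on chromosome 11, stood at 13.2, 2.01, 12.3 and 1.09 CPM (log2 difference -3.04, SE 0.34, limma adjusted p = 5.93e-05). Neither pair of groups overlapped, and in 38.2% of all genes tested both 1,3BD libraries were below both water libraries. The exons of Irgm2 and Igtp share 162 bases in the annotation, and 11.8% of the 50-base stretches of Igtp occur elsewhere, chiefly in Irgm2.

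The remaining GTPases fell by less, except Mx2. Mx2, a dynamin-like antiviral protein, stood at 3.52, 0.574, 3.52 and 0.150 CPM (log2 difference -3.22, SE 0.51, limma adjusted p = 5.70e-04). Iigp1, an effector GTPase, stood at 13.2, 5.27, 12.3 and 3.64 CPM (log2 difference -1.52, SE 0.29, limma adjusted p = 0.00166). Gbp3 stood at 18.1, 8.28, 13.5 and 5.70 CPM (log2 difference -1.18, SE 0.26, limma adjusted p = 0.00398). In each of these 3 genes both 1,3BD libraries were below both water libraries, a pattern found in 38.2% of all genes tested. Gbp7 stood at 8.91, 5.09, 10.3 and 4.54 CPM, also without overlap (log2 difference -0.98, SE 0.29, limma adjusted p = 0.0189), but its call was lost in DESeq2, with library totals, without a filter and without LnF1 water, ObF1 water or ObF1 1,3BD (adjusted p 0.0519 to 0.187 by limma and DESeq2). Mx1 was not tested, having 12, 3, 18 and 4 reads. Iigp1 lost its call without LnF1 water (limma adjusted p = 0.0680), and Gbp3 without LnF1 water, ObF1 water or ObF1 1,3BD (limma adjusted p 0.0584 to 0.174).

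Short stretches around the matches of Gbp2 (chr3:142620594-142620623, plus strand) and Irgm1 (chr11:48871428-48871457, minus strand) are printed because these were the GTPases that fell furthest. The stretches of Igtp (chr11:58199456-58199555, plus strand) and Irgm2 (chr11:58214877-58214976, plus strand) are near-copies of each other, with a longest identical run of 61 bases, and hold a GAS spelling (TTCNNNGAA, which reads the same on both strands) just before an ISRE spelling. The Gbp2 and Irgm1 stretches overlap an annotated exon of the same gene, that of Igtp ends where the gene starts, and that of Irgm2 lies within the longer annotated Irgm2 gene, outside its exons. Capitals mark both kinds of match, and the source and build are as above.
Gbp2: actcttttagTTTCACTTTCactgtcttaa
Irgm1: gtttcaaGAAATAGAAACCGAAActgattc
Igtp: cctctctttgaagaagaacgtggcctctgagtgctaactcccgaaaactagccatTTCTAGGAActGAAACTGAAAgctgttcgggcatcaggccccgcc
Irgm2: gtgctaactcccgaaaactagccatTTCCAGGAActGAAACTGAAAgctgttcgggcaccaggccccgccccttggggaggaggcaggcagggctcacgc

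Isg15, a ubiquitin-like protein attached to other proteins during the response, and Usp18, the enzyme that removes it, fell together. Isg15 stood at 43.4, 4.20, 37.97 and 1.54 CPM (log2 difference -3.95, SE 0.32, limma adjusted p = 8.54e-06). Usp18 stood at 15.3, 1.65, 16.9 and 1.09 CPM (log2 difference -3.51, SE 0.34, limma adjusted p = 1.97e-05). The water values of both genes were more than 9-fold above the 1,3BD values in each parental group. Parp9 and its binding partner Dtx3l, a ubiquitin ligase, lie head to head on chromosome 16 and share 458 exonic bases on opposite strands, and whether the counting used strand is not given in the sources used here. Parp9 stood at 37.01, 11.2, 38.9 and 11.4 CPM (log2 difference -1.75, SE 0.23, limma adjusted p = 1.64e-04), and Dtx3l stood at 22.8, 11.5, 30.7 and 11.02 CPM (log2 difference -1.23, SE 0.25, limma adjusted p = 0.00239). Parp14, an ADP-ribosyltransferase next to them, stood at 16.4, 6.06, 28.6 and 6.26 CPM (log2 difference -1.80, SE 0.28, limma adjusted p = 4.72e-04). Over all genes tested, 38.2% had both 1,3BD libraries below both water libraries. These 3 genes also had non-overlapping groups, and Dtx3l lost its call without ObF1 water (limma adjusted p = 0.0918). Trim25, the ubiquitin ligase that activates RIG-I, stood at 74.4, 111, 71.8 and 88.2 CPM, higher in both 1,3BD libraries without passing the test (log2 difference 0.44, SE 0.20, limma adjusted p = 0.0954). It passed with library totals in place of the scaling factors (log2 difference 0.69, limma adjusted p = 0.0169).

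The Isg15 promoter (chr4:156200819-156200918, minus strand) is shown because its ISRE spellings overlap in a single run, which is in capitals. The Oas1a stretch (chr5:120907526-120907625, minus strand) holds a GAS match near its 5′ end and overlapping ISRE matches near the start of transcription. The Irf1 stretch (chr11:53769914-53770013, plus strand) holds a GAS match and no ISRE match. Sequence, strand and source are given as for the genes above.
Isg15: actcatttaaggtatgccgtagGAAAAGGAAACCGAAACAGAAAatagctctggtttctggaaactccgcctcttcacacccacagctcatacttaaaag
Oas1a: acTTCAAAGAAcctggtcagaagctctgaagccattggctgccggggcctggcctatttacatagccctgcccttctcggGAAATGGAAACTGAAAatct
Irf1: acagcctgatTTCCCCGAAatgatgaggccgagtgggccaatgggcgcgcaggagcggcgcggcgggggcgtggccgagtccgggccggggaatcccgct

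The other 10 effectors all fell, against 24.8% of all genes tested, with a median log2 difference of -2.27. Of the 10, 3 (Rsad2, Cmpk2 and Cxcl10) entered the test through their water libraries alone, so a lower 1,3BD value followed from the filter. Ifitm3 stood at 503, 205, 310.3 and 182 CPM (log2 difference -1.03, SE 0.21, limma adjusted p = 0.00251). Bst2, the tether that holds budding virus at the cell surface, stood at 40.2, 16.997, 26.6 and 5.29 CPM (log2 difference -1.78, SE 0.29, limma adjusted p = 7.44e-04). In both genes the highest value was in LnF1 water and the lowest in ObF1 1,3BD. Rsad2 (viperin) and Cmpk2, a nucleotide kinase, lie next to each other on chromosome 12 on opposite strands. Rsad2 stood at 1.61, 0.323, 4.65 and 0.187 CPM (log2 difference -3.11, SE 0.57, limma adjusted p = 0.00151), and Cmpk2 at 2.04, 0.251, 3.69 and 0.225 CPM (log2 difference -3.15, SE 0.50, limma adjusted p = 5.80e-04). Both were under 1 CPM in each 1,3BD library. Isg20, an RNA exonuclease, stood at 16.6, 6.78, 21.03 and 9.79 CPM (log2 difference -1.19, SE 0.25, limma adjusted p = 0.00313). Xaf1, a promoter of cell death, stood at 23.3, 3.80, 19.6 and 4.46 CPM (log2 difference -2.36, SE 0.27, limma adjusted p = 7.15e-05). Rtp4, a chaperone of membrane receptors, stood at 11.3, 2.73, 10.6 and 1.39 CPM (log2 difference -2.45, SE 0.34, limma adjusted p = 2.66e-04). No groups overlapped in these genes, and in 38.2% of all genes tested both 1,3BD libraries were below both water libraries.

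Cxcl10, a chemokine that attracts T cells, stood at 1.44, 0.430, 1.78 and 0.187 CPM (log2 difference -2.19, SE 0.54, limma adjusted p = 0.00707). Ifi44 stood at 5.05, 1.40, 6.60 and 0.787 CPM (log2 difference -2.37, SE 0.41, limma adjusted p = 0.00100), and Ifi35 at 24.9, 13.1, 21.8 and 9.45 CPM (log2 difference -1.06, SE 0.24, limma adjusted p = 0.00482). All 3 were lower in both 1,3BD libraries, where 43.5% of all genes tested were lower in both parental groups. Bst2 (limma adjusted p 0.0538 to 0.148), Cxcl10 (adjusted p 0.0602 to 0.0886) and Ifi35 (adjusted p 0.0559 to 0.138) each lost their call when LnF1 water, ObF1 water or ObF1 1,3BD was left out, and Cxcl10 also without a filter. Ifitm3 lost it without LnF1 water or ObF1 1,3BD (limma adjusted p 0.0817 to 0.165), Isg20 without either water library (adjusted p 0.0628 to 0.125), and Rsad2 without ObF1 water (adjusted p = 0.0540).

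**Figure D3:**
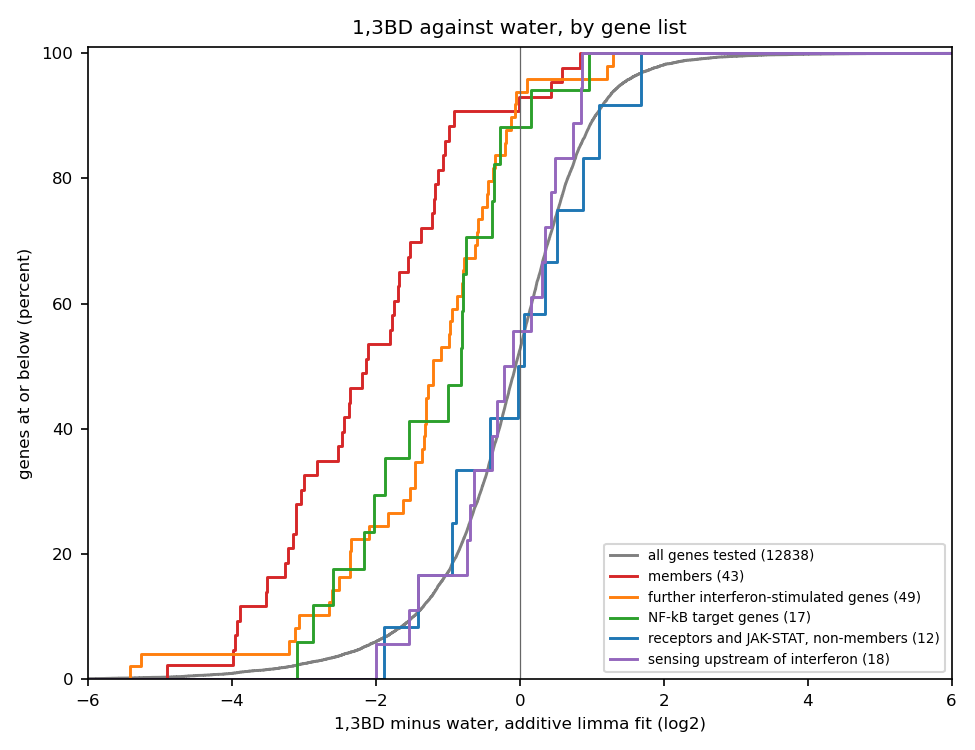
Cumulative share of genes at or below each log2 difference between 1,3BD and water, for the 43 tested members, 4 other gene lists and all 12838 genes tested. The median of the members is -2.14 (-1.72 for those with a mean of at least 5 CPM), that of the further interferon-stimulated genes -1.21 and that of all genes -0.06.

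A further list of 61 interferon-stimulated genes outside the set was also mostly lower with 1,3BD. It was chosen with earlier results of these data known, so it is no independent check of the members. Of the 49 tested, 32 fell and 1 rose, where 24.8% and 19.2% of all genes tested fell and rose. Their median log2 difference was -1.21. Of the 49, 5 were under 1 CPM in both 1,3BD libraries and entered the test through their water libraries alone. Ly6e, a cell surface protein, stood at 244, 99.98, 184 and 121 CPM and fell (log2 difference -0.95, SE 0.22, limma adjusted p = 0.00497). Shisa5, a membrane protein linked to cell death, stood at 282, 178, 221 and 157 CPM and fell (log2 difference -0.58, SE 0.19, limma adjusted p = 0.0307). Ly6e lost its call without LnF1 water and without a filter (limma adjusted p 0.0655 to 0.137), and Shisa5 in 8 of the alternatives, among them each library left out (adjusted p 0.0684 to 0.387 by limma and DESeq2). The other 2 of the 4 with the highest mean did not pass. B2m, the light chain of MHC class I, stood at 363, 170.2, 282 and 327 CPM (log2 difference -0.44, SE 0.29, limma adjusted p = 0.252), and was called lower without the ObF1 1,3BD library (-0.91, limma adjusted p = 0.0469). Lgals3bp, a secreted glycoprotein, stood at 246, 250.3, 255 and 211 CPM (log2 difference -0.12, SE 0.20, limma adjusted p = 0.641). Ifi47, a GTPase chosen after its values were seen, stood at 10.9, 0.179, 24.1 and 0.487 CPM and fell (log2 difference -5.41, SE 0.38, limma adjusted p = 2.29e-06). The gene that rose was Ifi204, a DNA-binding protein of the same family as the DNA sensors, at 42.9, 69.3, 39.9 and 149.96 CPM (log2 difference 1.30, SE 0.28, limma adjusted p = 0.00497).

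Markers of other cell types also differed between the libraries. Plasmacytoid dendritic cells are strong interferon producers, and their marker Siglech had no read. Of their 5 markers only Tcf4, at 149.7, 113, 106 and 106 CPM, and the member Bst2 passed the filter. The T cell genes Cd3e and Cd3g and the B cell gene Ms4a1 had no read either, and the 6 T and NK cell markers summed to 0 CPM in both water libraries and to 0.0717 and 0.112 CPM in 1,3BD. Ptprc, the pan-leukocyte gene, was at most 0.150 CPM, and 4 leukocyte markers summed to at least 1.69 and at most 2.50 CPM in the water libraries, against 0.215 and 0.937 CPM in the 1,3BD libraries. All 7 macrophage and monocyte markers had reads in water and 6 in 1,3BD, with sums of 27.6 and 16.3 CPM against 5.34 and 9.60 CPM. The macrophage gene Adgre1 was at most 0.806 CPM. The summed leukocyte and macrophage markers were lower in both 1,3BD libraries, but not every marker was. In the LnF1 pair all 4 leukocyte markers and 6 of 7 macrophage markers were lower with 1,3BD. In the ObF1 pair 2 leukocyte markers were lower and 1 higher, and 4 macrophage markers were lower and 3 higher. The part of these markers in the lower values of the interferon-stimulated genes was not tested. Of the leukocyte and macrophage lists 1 and 4 genes were tested, of which 1 and 2 fell and none rose. Over all genes tested, the shares that fell and rose were 24.8% and 19.2%. The tested leukocyte gene was under 1 CPM in both 1,3BD libraries and entered the test through its water libraries alone.

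Stromal markers differed as well. In water the 6 markers of mural cells and myofibroblasts summed to 8448 and 9093 CPM, against 338 and 355 CPM in the 1,3BD libraries, with Acta2 at 7692, 113, 8097 and 165 CPM. The 10 markers of adipose progenitors and fibroblasts, the cell type of the study's question, had reads in all libraries, and their sums were 18072 and 20011 CPM (water) and 5048 and 4366 CPM (1,3BD), with Pdgfra at 243, 281, 236 and 412 CPM. Of these 10 markers 8 were tested, of which 3 fell (Col1a1, Thy1 and Icam1, named after their values were seen), none rose and 5 did not pass, and most of each sum was Col1a1, at 16522, 4307, 18761 and 3371 CPM. In the LnF1 pair 9 of the 10 were lower with 1,3BD and 1 was higher. In the ObF1 pair 6 were lower and 4 higher. The 5 endothelial markers reached sums of 7.17 and 18.6 CPM (water) and 1.18 and 2.70 CPM (1,3BD). Of 5 mature adipocyte markers, Adipoq and Lep had no read, while Lpl stood at 347, 1555, 137 and 1314 CPM. A list of 15 glucocorticoid-responsive genes, also chosen with earlier results of these data known, moved the other way. Of these, 11 were higher and 2 lower, with a median log2 difference of 1.46. Over all genes tested, the shares higher and lower were 19.2% and 24.8%. Its 4 members with the highest mean (Mt1, Errfi1, Klf9 and Ddit4) rose, though Errfi1 lost its call without LnF1 water (limma adjusted p = 0.0545) and Ddit4 without LnF1 water, LnF1 1,3BD or ObF1 water (adjusted p 0.0504 to 0.125), with Klf9 at 50.9, 261, 67.8 and 323 CPM (log2 difference 2.30, SE 0.19, limma adjusted p = 6.74e-06). The part of each of these differences in the result was not tested.

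The comparison by parental group asked whether the same genes differed between ObF1 and LnF1 offspring. No member was called lower or higher by limma, against 0.101% and 0.195% of all genes, and none was called by edgeR, DESeq2 or limma voom. At an unadjusted p under 0.05 there were 4 members (Bst2, Stat2, Isg15 and Ifit2) in limma, and 10.8% of all genes tested passed that level. The lowest p belonged to Bst2, at -1.13 on the log2 scale, lower in ObF1 (SE 0.29, limma adjusted p = 0.166). The median over the tested members was -0.01. A result that misses the threshold with 1 library per combination does not show that the parental groups were alike.

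In water, 28 of the 45 genes were higher in the ObF1 library and 17 were lower, where 49.8% of all genes tested were lower. At least 2-fold higher were 3 (3.04% of all genes tested), namely Oas3, Rsad2 and Oas1a, and none was 2-fold lower (2.8% of all genes tested). Rsad2 was 2.88 times as high in ObF1, with a 95% counting interval of 1.97 to 4.29, and Oas1a 2.34 times as high, with an interval of 1.74 to 3.16. Oas3 was 4.09 times as high on 10 and 40 reads, with an interval of 2.01 to 9.18. These are low genes, and with a mean of at least 5 CPM required, no member was 2-fold higher.

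Under 1,3BD the order was more often the reverse, with 29 genes lower in ObF1, 15 higher, and Oas3 at 0 in both, where 48.4% of all genes tested were lower. At least 2-fold lower were 5 (4.27% of all genes tested): Ifit1, Mx2, Bst2, Oasl1 and Isg15. No member was 2-fold higher, against 3.07% of all genes tested. Bst2 in ObF1 was 0.311 times the LnF1 level (interval 0.256 to 0.376) under 1,3BD and 0.662 times (0.597 to 0.733) in water. Ifit1 was 0.251 times the LnF1 level under 1,3BD (0.177 to 0.351) and 1.40 times in water (1.27 to 1.53). Ifitm3 was 0.617 times (0.600 to 0.636) in water. The intervals are exact, cover counting error only, and compare single libraries with no replicate check.

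**Figure D4:**
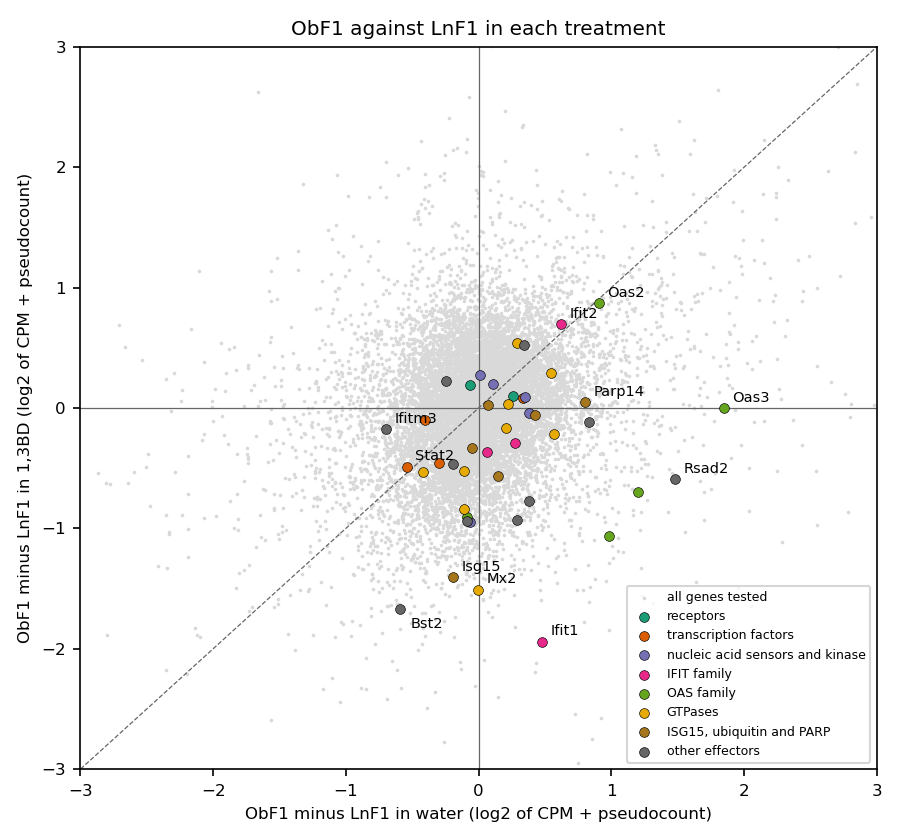
Log2 difference between ObF1 and LnF1 for each gene in water (horizontal axis) and in 1,3BD (vertical axis), 1 point per member over a grey background of all genes tested. Members scatter on both sides of 0, with Ifit1 at 0.48 in water and -1.94 in 1,3BD and Bst2 lower in both.

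The log2 difference between 1,3BD and water was lower in the ObF1 pair than in the LnF1 pair for 35 of 45 genes (77.8%), against 51.5% of all genes tested. Among the 35 are Ifnar1 and Trim25, which were higher with 1,3BD in both pairs and by less in ObF1, and for the others the fall was larger in ObF1. The median difference between the 2 pairs was -0.42 on the log2 scale for the members and -0.02 for all genes. At least 2-fold lower were 37 members in LnF1 (16.4% of all genes) and 39 in ObF1 (19.7%), and 36 were so in both (12.6%). The widest gaps between the pairs were those of Ifit1, Rsad2 and Oasl1. Rsad2 differed by -2.07 in LnF1 and -4.15 in ObF1, and Oasl1 by -1.50 and -3.55. These 2 genes rest on few reads in the LnF1 and ObF1 1,3BD libraries, 9 and 5 for Rsad2 and 9 and 3 for Oasl1. Their counting intervals for ObF1 against LnF1 under 1,3BD include a ratio of 1 (0.153 to 1.93 and 0.0607 to 1.40). Ifitm3 and Xaf1 went the other way, with Ifitm3 at -1.30 in LnF1 and -0.77 in ObF1. With 1 library per combination the interaction has no test, because it is the residual of the model.

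The RefSeq promoter table (250 bases before to 50 after each start) had 41 entries for 35 of the 45 members; Mx1, Parp9, Oas2, Dhx58, Iigp1, Usp18, Mx2, Zbp1, Parp14 and Rtp4 had none. The ISRE spelling (GAAA, any 2 bases, GAAA, on either strand) occurred in 20 of the 41 entries (48.8%), against 3.44% of all 32851 promoters. A longer spelling, with a C after the last GAAA, occurred in 39.0% against 0.819%. The GAS spelling TTCNNNGAA occurred in 13 of 41 (31.7%), against 8.30%. The ISRE and GAS matches overlap in Bst2 and Ifitm3, and neighbouring ISRE matches overlap in Isg15, Irgm1, Oas1a, Gbp3 and Bst2. The 30 ISRE matches lay at positions -222 to 33 from the start, with a median of -65. A match is a description of the letters and shows neither binding nor its absence.

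Members with and without the ISRE spelling overlapped widely in their response. The 19 tested members with a match had a median log2 difference of -2.48, ranging from -4.90 (Ifit3) to -0.0076 (Eif2ak2). The 15 without a match had a median of -1.69, from -3.26 (Oasl2) to 0.84 (Ifnar1). With a GAS match the median was -1.19 over 13 members, and without one -2.37 over 21. Among all tested genes with an ISRE match, 105 of 358 fell (29.3%), with a median of -0.19. These are descriptions of a chosen set and were not tested.

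**Figure D5:**
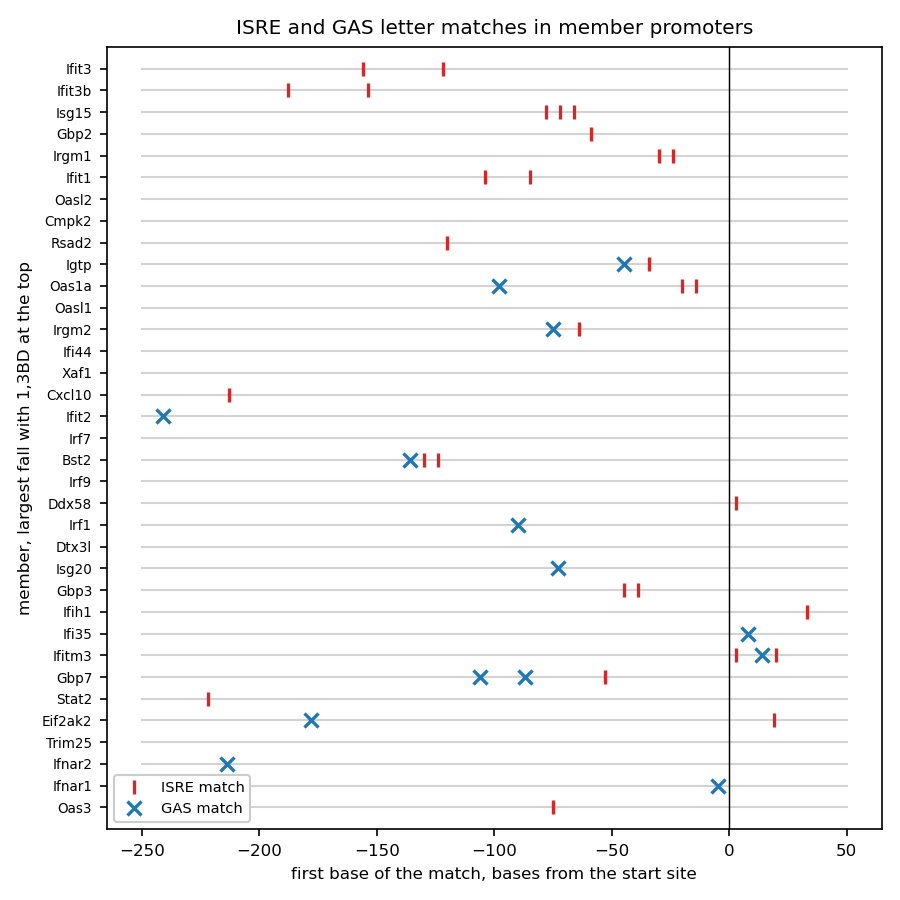
Positions of ISRE matches (red bars) and GAS matches (blue crosses) in the promoters of 35 members, in bases from the start site, with the largest fall between water and 1,3BD at the top and the untested Oas3 at the bottom. The rows of Ifit3, Ifit3b, Isg15, Gbp2 and Irgm1 at the top all hold an ISRE match, and rows with no match occur from Oasl2 down to Trim25.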

How the data were processed

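Polyadenylated RNA libraries were made with the KAPA mRNA HyperPrep kit from TRIzol RNA, per the labels' protocols. The submitters' processing notes name the build mm10 and the tools edgeR and DESeq2, without a role or version. The aligner, the counter, the annotation and whether strand was used were not given in the sources used here. The deposited table holds a normalized signal per gene and library, scaled read counts per 1000000 reads (CPM), rather than raw counts. Dividing each column by its smallest step gave whole reads for 100% of values (tolerance 1e-06), with 24804006, 24586827, 26000090 and 25432747 reads per library. The 2 columns whose names carry no BD were matched to the water samples because the other 2 name 1,3BD.

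Values were tested with limma 3.58.1 in R 4.3.3 (trend and robust moderation, terms for treatment and parental group, Benjamini-Hochberg adjustment over 12838 genes), with a pseudocount of 0.0796 CPM, worth 2 reads. On the recovered reads edgeR 4.0.16 called 3114 genes lower and 2401 higher in 1,3BD, and DESeq2 1.42.0 and limma voom were also run. The test was checked on simulated data. Of 55536 rows, 2271 were named by matching identifiers to the reference annotation. All members are named, and of each other list the 4 with the highest mean CPM, plus every interferon ligand or receptor with a read. The members and lists were chosen with earlier results of these data known. Counting intervals are 95% and exact.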

Additional observations from a re-analysis of the deposited data

Results flagged for a closer look

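Eif2ak2 differed in opposite directions in the parental groups beyond counting error, with a log2 difference between 1,3BD and water of -0.14 in LnF1 and 0.13 in ObF1. Such opposite differences were found in 6.49% of all genes tested.

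For ObF1 against LnF1, Ifit1 was higher in water (log2 difference 0.48) and lower in 1,3BD (-1.94), and Ifi44 was higher in water (0.38) and lower in 1,3BD (-0.77). Opposite differences of this kind beyond counting error were found in 14.5% of all genes tested. With 1 library per combination, none of these 3 differences between groups was tested.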

How the results depend on the processing

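The number of members called lower in 1,3BD was 37 to 39 over changes of pseudocount, scaling, moderation, covariate and tool and with no filter on low values, and 30 of the 34 with a mean of at least 5 CPM. Leaving out 1 library at a time, with the parental term dropped, gave 26 to 39 lower (26 without ObF1 water) and 0 to 2 higher. Members called higher numbered 1 without a filter and 1 without the covariate. The median difference was -1.82 with a pseudocount worth 8 reads and -1.72 with a mean of at least 5 CPM. With library totals in place of scaling factors, 1 member was 2-fold higher in LnF1 and 1 in ObF1, against 0. Eif2ak2, which did not pass, turned to 0.24 with library totals, 0.0398 with RLE factors, 0.0399 with DESeq2 and -0.15 to 0.13 with 1 library left out in turn. Stat3 turned to 0.22 with library totals, 0.0177 with RLE factors and with DESeq2. Lgals3bp turned to 0.13 with library totals, and with 1 library left out in turn Stat3 ranged from -0.15 to 0.0910, B2m from -0.91 to 0.0313 and Il10rb from -0.15 to 0.26. For ObF1 minus LnF1, the median ranged from -1.18 to 1.05 with a library left out, and that of Bst2 from -2.29 to 0.0257, but these fits drop the treatment term and leave treatments unbalanced between the parental groups, so the difference between treatments enters them by construction and they do not bear on stability. In water, 0 members were 2-fold higher at a mean of 5 CPM. In 1,3BD, 2-fold lower members numbered 3 with 8 reads, 9 with library totals and 3 at a mean of 5 CPM, and 1 was 2-fold higher with 1 read. The cause of the other changes was not tested. No paired analysis was possible because the labels carry no replicate numbers. At the depths given, a gene at 0 may still reach 0.108 to 0.130 CPM.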

Other observations

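NF-kB target genes, the other main inflammatory program of stromal cells, were lower as a list, which was chosen with earlier results of these data known. Of 19 genes 17 were tested, of which 11 fell and 1 rose, where 24.8% and 19.2% of all genes tested fell and rose. The gene that rose was Nfkbia, the inhibitor of NF-kB, chosen after its values were seen. The median log2 difference of the list was -0.81. Cxcl12, a chemokine of stromal cells, stood at 331, 38.3, 142 and 22.6 CPM and fell (log2 difference -2.88, SE 0.21, limma adjusted p = 2.80e-06). Vcam1, an adhesion molecule, stood at 278, 172, 244 and 130.5 CPM and fell (log2 difference -0.80, SE 0.19, limma adjusted p = 0.00696). Both 1,3BD values were below both water values in either gene, a pattern found in 38.2% of all genes tested. Cxcl12 lost its call without ObF1 1,3BD (limma adjusted p = 0.0666), and Vcam1 without LnF1 water, ObF1 water or ObF1 1,3BD and without a filter (adjusted p 0.0501 to 0.174). Tnfaip2 stood at 186, 161, 161 and 109.8 CPM (log2 difference -0.38, SE 0.20, limma adjusted p = 0.139), and Nfkb1, a subunit of the factor itself, at 73.9, 64.6, 73.4 and 57.1 CPM (log2 difference -0.28, SE 0.20, limma adjusted p = 0.282). Neither of these passed the test.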
